A study of Mus musculus with 2 samples.

Results

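Microexons are exons so short that they encode only a few amino acids. The set described here holds the annotated exons of 3 to 27 nt that were spliced into poly-A+ RNA of the embryonic mouse central nervous system. An exon of the deposited Ensembl annotation on mm9 became a member when both of its inclusion junctions, the splice junction upstream and the one downstream, were in the deposited junction list. It also needed 20 or more reads over both inclusion junctions and any junction that skips the exon between the same flanks. Of 351001 annotated exons 7677 had a length of 3 to 27 nt, 1136 of these had both junctions and 991 reached the read minimum, in 807 host genes. There are 2 libraries of 1 group, made from C57BL/6J central nervous system at embryonic day 18, with littermates of both sexes pooled. There is no group with a treatment, a mutation or another tissue to compare with. Whether the members are specific to neurons therefore cannot be told from these data.

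A microexon is too short to be recognised by the factors that normally bridge an exon, and its splicing depends strongly on proteins that bind the introns beside it. In neurons the serine/arginine repetitive matrix proteins Srrm4 and Srrm3 promote many of them, and the polypyrimidine tract binding protein Ptbp1 holds many of them out of the mRNA in other cells. Neural microexons often lie in kinases, adhesion molecules, endocytic proteins and motors, where they add a few residues to a protein surface without changing the reading frame.

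To show what is inserted, 19 members are printed below as spliced coding sequence of the GENCODE M21 transcripts on GRCm38, with the microexon in capitals and 24 bases of each neighbouring exon in lower case, 5′ to 3′. They were picked after their values were seen, to cover the shortest members, members at intermediate inclusion and sets of related genes.
Nsmf 6 nt: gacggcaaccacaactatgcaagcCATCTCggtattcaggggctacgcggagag
Ap2m1 6 nt: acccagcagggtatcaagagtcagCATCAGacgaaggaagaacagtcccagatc
Git2 6 nt: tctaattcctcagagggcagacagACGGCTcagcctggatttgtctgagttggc
Asap2 9 nt: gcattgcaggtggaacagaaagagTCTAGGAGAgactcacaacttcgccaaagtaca
Ptprd 9 nt: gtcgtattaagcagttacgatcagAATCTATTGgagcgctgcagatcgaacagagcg
Kdm1a 12 nt: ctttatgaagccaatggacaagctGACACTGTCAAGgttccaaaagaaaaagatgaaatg
Dnm2 12 nt: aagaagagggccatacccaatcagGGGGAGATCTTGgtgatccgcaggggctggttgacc
L1cam 12 nt: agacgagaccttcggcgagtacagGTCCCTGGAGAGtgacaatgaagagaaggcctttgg
Agrn 12 nt: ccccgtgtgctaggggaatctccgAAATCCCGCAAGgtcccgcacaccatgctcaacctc
Agrn 24 nt: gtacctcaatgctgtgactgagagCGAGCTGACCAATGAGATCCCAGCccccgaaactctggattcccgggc
Src 18 nt: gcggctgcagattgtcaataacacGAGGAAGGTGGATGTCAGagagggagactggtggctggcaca
Pdlim5 18 nt: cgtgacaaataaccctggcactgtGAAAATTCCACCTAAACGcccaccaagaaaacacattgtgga
Kif1a 24 nt: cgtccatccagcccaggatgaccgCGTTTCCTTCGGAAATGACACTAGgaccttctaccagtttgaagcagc
Cpeb4 24 nt: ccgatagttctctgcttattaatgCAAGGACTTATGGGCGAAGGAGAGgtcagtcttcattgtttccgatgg
Mef2a 24 nt: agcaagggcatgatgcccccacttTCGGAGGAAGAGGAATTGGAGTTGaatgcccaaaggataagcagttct
Eif4g1 21 nt: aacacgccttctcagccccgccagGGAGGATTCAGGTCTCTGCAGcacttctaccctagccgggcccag
Eif4g3 21 nt: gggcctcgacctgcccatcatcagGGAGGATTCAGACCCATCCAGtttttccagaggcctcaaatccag
Shank1 24 nt: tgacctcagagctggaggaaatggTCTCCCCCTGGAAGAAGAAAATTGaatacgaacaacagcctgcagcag
Shank3 24 nt: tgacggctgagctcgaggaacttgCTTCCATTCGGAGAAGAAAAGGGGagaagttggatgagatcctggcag

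The microexon of Src lies on GRCm38 at chr2:157458843-157458860 on the plus strand and that of Kdm1a at chr4:136563438-136563449 on the minus strand. The 6 nt exon of Nsmf is at chr2:25057965-25057970 on the plus strand, and the 24 nt exon of Agrn at chr4:156168546-156168569 on the minus strand. All 19 are inside coding sequence, which was a condition of the choice, and the length of each is a multiple of 3.

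The junction list held 48204482 reads of a replicate column called R1 and 69266527 of a column called R2, over 1226020 junctions, and does not say which library each column is. The 2 libraries, replicates 1 and 2 in the labels, had 93979836 and 137012773 fragments on genes. Of the tissue markers, 8 of 8 neuronal genes were detected at 1 TPM or more in both libraries (TPM is the deposited abundance unit, scaled to transcript length and library size), and their summed level was 6399 and 5955 TPM. The summed level of 6 skeletal muscle genes was 13.6 TPM in replicate 1 and 557 TPM in replicate 2, and 2 of the 6 were detected in both. The 4 fibroblast genes summed to 120 and 306 TPM. Nothing says how many embryos each library held, and any p printed here speaks of these 2 libraries alone.

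Inclusion is the mean of the reads on both inclusion junctions as a percent of that mean plus the skipping reads. Because the reads that give inclusion also chose the members, the levels are a description without a test. The median over all 991 members was 99.3%, with 73 members under 10%, 263 at 10 to 90% and 655 over 90%. A member had between 20 and 64764 reads, with a median of 452. When any junction that spans the exon on its strand counted as skipping, the median was 77.4%, with 137, 534 and 320 members in these classes.

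Some annotated exons share a splice site with another exon, so that a junction cannot be given to the microexon alone. This held for 228 members, and 13 were never internal to a transcript. The other 750 had their own splice sites, in 615 host genes, and the results below use these unless stated. Their median inclusion was 98.8%, and 62 lay under 10%, 212 at 10 to 90% and 476 over 90%. No skipping read was seen for 314 of them.

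By junction reads, median inclusion was lowest in the shortest class of microexons and at or near 100% in the longest. It did not grow at every step. The 26 members of 3 to 9 nt had a median of 20.9%, and the 39 of 10 to 12 nt a median of 68.2%. It was 67.0% for 50 members of 13 to 15 nt, 91.1% for 84 of 16 to 18 nt and 98.8% for 123 of 19 to 21 nt. At 22 to 24 nt the median was 99.1% (181 members) and at 25 to 27 nt it was 100% (247 members). Transcript levels, described below, gave a value only for members with annotated transcripts both with and without the exon. From these levels the medians did not rise with length. They were 70.2% (14 members), 70.3% (21), 52.8% (29), 62.9% (42), 69.4% (50), 68.9% (57) and 51.4% (57) in the same order. For these same members the junction medians were 20.9%, 32.4%, 44.6%, 79.9%, 86.2%, 70.6% and 76.2%. Intermediate inclusion by junction reads was more frequent than among longer exons chosen by the same junction rule. It was found for 28.3% of the microexons, for 9.26% of 4156 exons of 28 to 50 nt, for 4.32% of 31257 exons of 51 to 100 nt, for 2.69% of 56363 exons of over 100 to 200 nt and for 2.67% of 12019 longer exons.

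**Figure D1:**
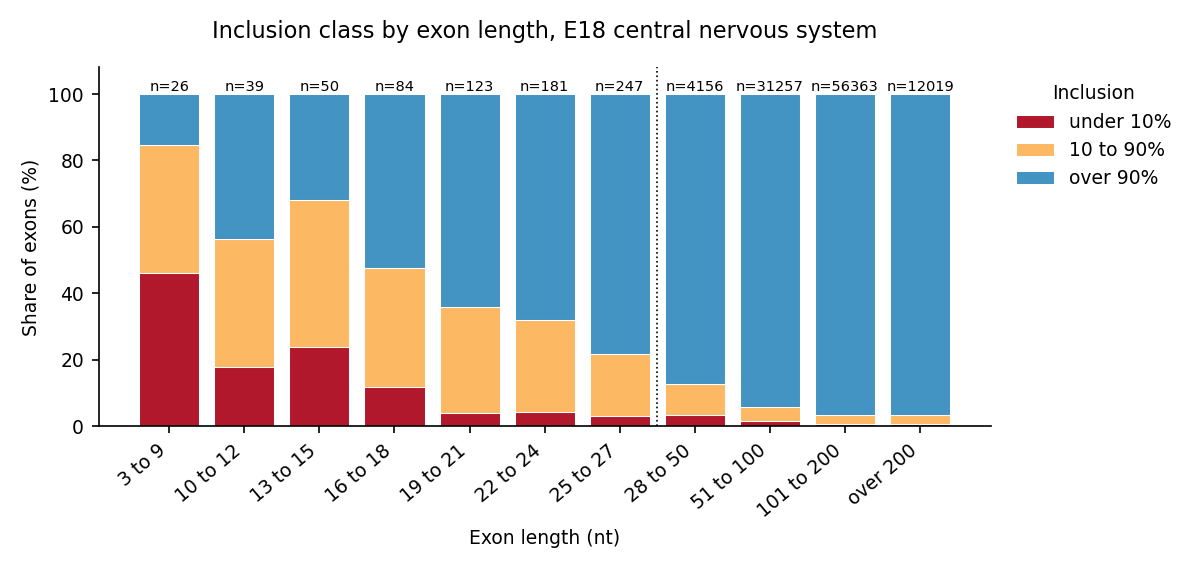
Stacked bars give the share of exons (y axis, percent) at under 10%, 10 to 90% and over 90% inclusion for each class of exon length (x axis, nt), for exons with their own splice sites. Inclusion is from junction reads. The dotted line parts microexons from longer exons, n is the number of exons, and the share over 90% is 15.4% at 3 to 9 nt, 43.6% at 10 to 12 nt, 32% at 13 to 15 nt and 96.6% over 200 nt.

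The limit at 27 nt did not mark a step. The 166 members of 27 nt had a median inclusion of 100% with 41 at 10 to 90%, and the 55 exons of 28 nt just outside had a median of 100% with 4 at 10 to 90%. At 30 nt, the next length that keeps the frame, 25 of 138 exons lay at 10 to 90%, and at 33 nt 42 of 208. The members at the read minimum, with 20 reads each, were exons of Trim5, of Trim34a and Trim34b, and the 6 nt exon of Unc13a, and the exon just outside with 19 reads was a 27 nt exon of Trdn.

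Length in multiples of 3, which the rule did not use, was frequent among the microexons. A multiple of 3 was found for 540 of 750 microexons (72.0%), beside 43.3% at 28 to 50 nt, 41.3% at 51 to 100 nt, 39.5% at over 100 to 200 nt and 41.3% over 200 nt. Among the 212 microexons at 10 to 90% inclusion 191 were a multiple of 3 (90.1%), beside 63.4%, 50.3%, 42.7% and 48.0% in the longer classes at the same inclusion. Of the 62 under 10% it was 58 (93.5%) and of the 476 over 90% it was 291 (61.1%). Seen the other way, 191 of 540 microexons that keep the frame lay at 10 to 90% (35.4%), and 21 of 210 of other lengths (10%). The median inclusion of the 210 was 100%, and 125 of them had no skipping read. No test is given, since exons are not replicates.

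**Figure D2:**
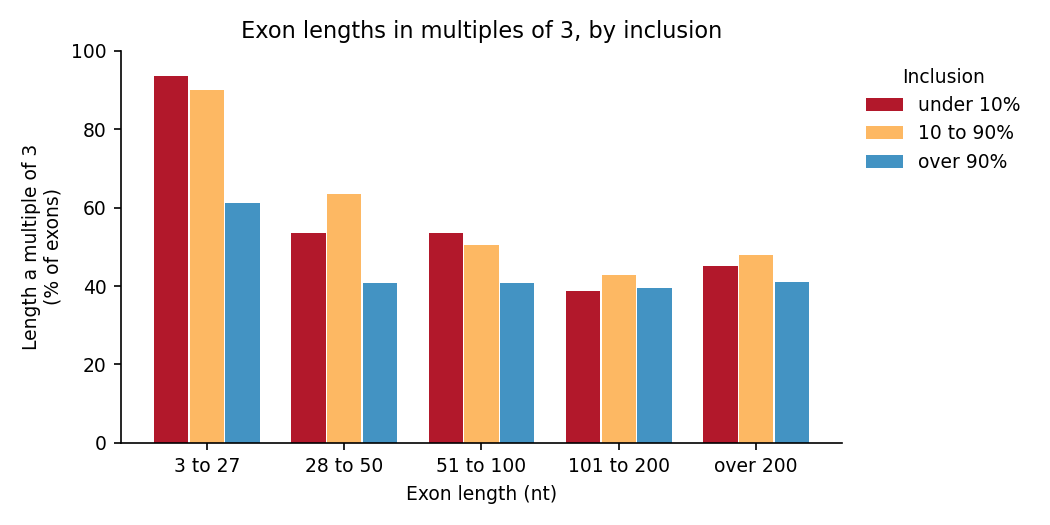
Bars give the percent of exons whose length is a multiple of 3 (y axis) by exon length class in nt (x axis) and inclusion class (colour), for exons with their own splice sites. Microexons reach 93.5% under 10% inclusion and 90.1% at 10 to 90%, against 42.7% at 10 to 90% for exons of over 100 to 200 nt.

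Collagen genes gave part of the constitutive multiples of 3. They encode triple helices of repeated 3-residue units, and their exons are known to be built from repeats of a short unit. The 52 members in 21 collagen genes included 43 of 27 nt, and 49 of the 52 had an inclusion over 90%. Col13a1 held 9 members and Col23a1 held 7. Leaving all collagens out, a set chosen after the values were seen, gave 70.1% in multiples of 3 over all members and 56.9% for those over 90% inclusion.

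Most members were coding. Of 750 members 673 were matched to GENCODE M21 by transcript, exon length and intron lengths, and 642 of these (95.4%) lay wholly in coding sequence, 11 in a UTR, 8 partly in coding sequence and 12 in transcripts without one. Among the 145 coding members at 10 to 90% that keep the frame, 41.4% began between codons, 33.8% after the first base of a codon and 24.8% after the second. In 463 exons of over 100 to 200 nt of the same kind these shares were 45.1%, 38.4% and 16.4%. Coding microexons were 30.2% A, 22.1% C, 26.7% G and 21.04% T, and coding exons of over 100 to 200 nt were 26.5% A, 24.8% C, 26.1% G and 22.6% T. Microexons at 10 to 90% had 30.8% A and those over 90% had 30.01% A.

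The shortest members had uneven inclusion junctions. Of 65 members of 3 to 12 nt, 35 differed by more than 3-fold between the upstream and the downstream junction, and in 28 of these the downstream junction had more reads. Summed over the 65 members, however, there were 8312 upstream and 6216 downstream reads. Of 685 members of 13 to 27 nt, 40 differed that much, and the downstream junction had more reads in 23 of these. By length the share of uneven members was 69.2% at 3 to 9 nt, 43.6% at 10 to 12 nt, 16% at 13 to 15 nt, 9.52% at 16 to 18 nt, 6.50% at 19 to 21 nt, 2.21% at 22 to 24 nt and 4.86% at 25 to 27 nt. The 6 nt exon of Nsmf had 7 reads upstream, 234 downstream and 182 that skipped it. The 6 nt exon of Ap2m1 had 2 upstream, 104 downstream and 65 skipping reads. A transcript with the exon uses both junctions, so an inclusion that rests on such counts depends on which junction is read. What made the counts uneven was not tested, and a read that crosses an exon of this size usually crosses both of its junctions, so the 2 counts can share reads.

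**Figure D3:**
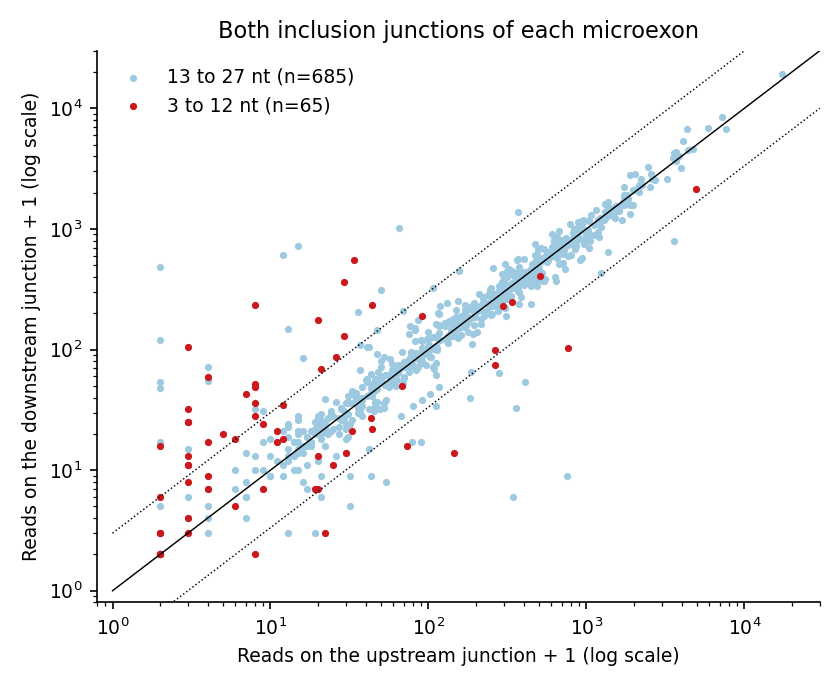
Each point is a microexon with its own splice sites, with reads on the upstream junction plus 1 (x axis, log scale) against reads on the downstream junction plus 1 (y axis, log scale), R1 and R2 summed. The solid line marks equal counts and the dotted lines 3-fold, and 35 of 65 members of 3 to 12 nt lie outside the dotted lines beside 40 of 685 of 13 to 27 nt.

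The transcript levels give a readout that the rule did not use, though from the same RNA. For each member the TPM of transcripts with the exon was divided by the TPM of transcripts that could be told to include or skip it. This was done in each library. Transcripts of the gene that could not be told apart were left out, so the TPM used could fall below that of the gene. The readout needed at least 1 transcript with the exon and 1 that skips it, and at least 1 TPM over both kinds. These conditions held for 270 members. Their median from transcripts was 61.8%, beside 73.4% from junctions for the same members. For 235 members of 13 to 27 nt the medians were 60.1% and 78.5%. For 35 members of 3 to 12 nt they stood the other way round, at 70.3% from transcripts and 23.6% from junctions. Of these 35, 24 were higher from transcripts, 19 by more than 20 points, and 5 were lower by more than 20 points. Across the 270 exons the readouts had a Pearson r of 0.61 and a Spearman coefficient of 0.61, and across the 35 short ones 0.46 and 0.48. The points share libraries and genes, and the mm10 tables have their own transcript set, so r is a description.

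**Figure D4:**
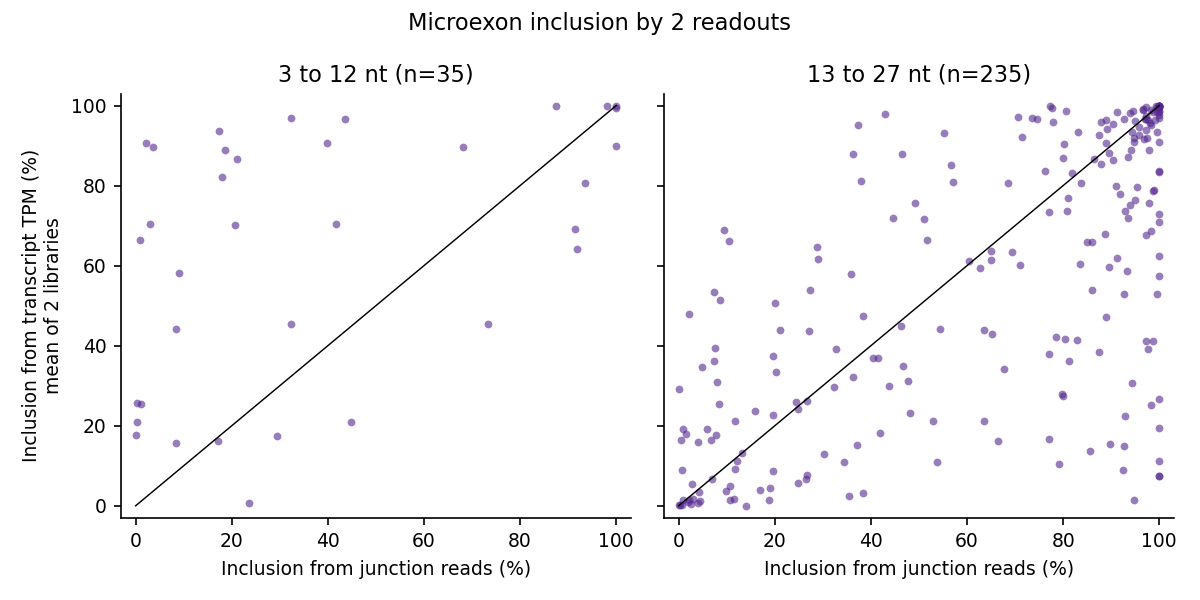
Inclusion from junction reads (x axis, percent) is plotted against inclusion from transcript TPM (y axis, percent, mean of 2 libraries) for 35 members of 3 to 12 nt on the left and 235 of 13 to 27 nt on the right, and the line marks equal values. On the left 24 of 35 points lie above the line, and on the right 85 of 235.

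The 2 readouts were far apart for several of the short exons printed above. The 6 nt exon of Nsmf, which encodes a messenger between synapse and nucleus, had an inclusion of 36.5% in R1 and 42.3% in R2, and 90.5% ± 1.47 (SD, n = 2) from transcripts. For the 9 nt exon of Asap2, a GTPase activating protein of ARF, junctions gave 5.26% and 0.78%, from 2 upstream, 2 downstream and 91 skipping reads in all, and transcripts gave 92.4% and 88.7%. The 6 nt exon of Git2, another ARF GTPase activating protein, was at 10.9% and 6.09% from junctions and at 41.04% and 47.3% from transcripts. The 9 nt exon of Ptprd gave 1.61% and 0.54% from junctions and 65.6% and 67.0% from transcripts. For the 12 nt exon of the dynamin gene Dnm2, a GTPase that cuts vesicles from membranes, junctions gave 11.0% and 24.9%, and transcripts 88.5% and 89.3%. The direction was reversed for the 6 nt exon of Ap2m1, the medium subunit of the endocytic adaptor AP2, with 42.0% and 46.1% from junctions and 22.2% and 19.7% from transcripts.

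The readouts lay close together for another short exon. The 12 nt exon of Kdm1a, a histone demethylase whose neuronal form carries it, had an inclusion of 18.1% in R1 and 16.6% in R2, and 15.8% and 16.4% from transcripts. Its junctions were still uneven, with 43 reads upstream, 233 downstream and 665 skipping. The 12 nt exon of the adhesion molecule L1cam, which adds residues to the cytoplasmic tail in neurons, stood at 91.3% and 91.6% from junctions and lower, at 66.6% and 71.7%, from transcripts.

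Kinases and phosphatases held 24 members in 21 genes, with a median inclusion of 77.2%, and 16 of the 24 lay at 10 to 90%. The share over all 750, to be set beside this and each list below, was 28.3%. Of the 24, 21 had a length that is a multiple of 3, and among all such members the share was 35.4%. The lists were drawn up with genes known to carry microexons, as said below. The 18 nt exon of the tyrosine kinase Src, at mm9 chr2:157284579-157284596, lengthens a loop of the SH3 domain in the neuronal form. It was included at 78.7% in R1 and 75.5% in R2, with 1023 upstream, 987 downstream and 299 skipping reads, and at 73.5% ± 0.374 (SD, n = 2) from transcripts. All 4 values lay between 73.2% and 78.7%. The receptor phosphatase Ptprz1, of glia and their precursors, included its 21 nt exon at 26.3% and 24.6%. The microtubule affinity kinase Mark3 included a 27 nt exon at 15.03% and 21.1%. The 22 nt exon of the kinase Camkk2, which does not keep the frame, had 1116 upstream and 1071 downstream reads and no skipping read, and its exact 95% interval began at 99.7%. Ptprd, a presynaptic receptor phosphatase whose microexons lie in or between its immunoglobulin domains and tune the choice of synaptic partners, held several members. Its 18 nt exon was at 79.5% and 71.6%, its 12 nt exon with own splice sites at 47.9% and 41.1%, and its 9 nt exon under 2% in both columns.

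Vesicle traffic and endocytosis held 47 members in 36 genes, with a median of 81.1%, 8 under 10%, 20 at 10 to 90% and 19 over 90%. The 15 nt exon of the clathrin assembly gene Snap91 was nearly always used, at 98.2% and 97.9%. A pair of 25 nt exons of Fcho1, an early endocytic protein, was at 100% in both columns and at 99.9% in both. Cadps, which primes dense-core vesicles, held 4 members. Its 18 nt exon was at 66.1% and 62.0%, its 21 nt exon at 10.9% and 12.04%, and its 12 nt and 9 nt exons under 1%. From transcripts the 18, 21 and 12 nt exons stood close together, between 19.8% and 22.6% in both libraries. These values rest on 2, 2 and 1 transcripts with the exon. A transcript can count for several exons, so the closeness is not a separate measurement of each exon. The 21 nt exon of Cltc, the clathrin heavy chain, shares a splice site and stood at 6.46% and 9.85% from junctions. Transcripts gave 31.5% and 36.1%.

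Cytoskeletal and motor genes held 47 members in 29 genes with a median of 89.4%, and 17 lay at 10 to 90%. Sptan1, the spectrin alpha chain under the plasma membrane, had a 24 nt exon with 7701 upstream and 6706 downstream reads and no skipping read, and a 15 nt exon at 97.6% and 97.1%. Kif1a, a motor of synaptic vesicle precursors, held 4 members. Its 24 nt exon was at 45.0% and 47.6%, its 18 nt exon had no skipping read, and its pair of 27 nt exons lay at 35.1% and 33.9% and at 3.95% and 3.97%. Clasp2, which tracks microtubule ends, held 6 members, of which 5 were between 78.8% and 92.8%. Its 3 nt exon, the shortest member, had 1 upstream, 5 downstream and 720 skipping reads.

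Adhesion molecules and receptors held 31 members in 18 genes with a median of 80.6%, and 16 lay at 10 to 90%. Agrn encodes agrin, which can carry small inserts near its carboxyl end and whose neuronal form clusters acetylcholine receptors. The 24 nt exon was at 38.4% in R1 and 37.5% in R2, with 1333 upstream, 1340 downstream and 2192 skipping reads, and the 12 nt exon at 39.5% and 42.8%. From transcripts they stood higher, at 81.0% ± 1.96 and 70.3% ± 0.309 (SD, n = 2). Bsg, a membrane glycoprotein of the immunoglobulin family, had the most reads in the list, with a 25 nt exon skipped by 1 read in R1 and none in R2. The latrophilins, receptors for teneurins, differed among themselves, as the 18 nt exon of Adgrl1 was at 99.5% in both columns and that of Adgrl2 at 8.32% and 9.98%.

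Synaptic scaffolds held 8 members in 5 genes, and 7 of the 8 lay at 10 to 90%, with a median of 72.4%. Cask, a kinase-like scaffold of synapses, included an 18 nt exon at 80.3% and 79.4% and a 27 nt exon at 0.16% over both columns (exact 95% interval 0.025% to 0.756%). Shank1 and Shank3, which organise the postsynaptic density, included 24 nt exons at 70.6% and 72.2% and at 41.8% and 35.8%.

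Channels and transporters held 14 members with a median of 96.8%, and 4 lay at 10 to 90%. The 20 nt exon of the calcium channel subunit Cacnb1 was at 96.6% and 92.9%. Regulators of small GTPases held 17 members with a median of 92.7%, and 7 lay at 10 to 90%. The 24 nt exon of Rapgef2, an exchange factor for Rap, had no skipping read.

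Transcription and chromatin genes held 11 members with a median of 89.8%, and 5 lay at 10 to 90%. The 24 nt exon of the transcription factor Mef2c was at 97.0% and 98.1%, and that of Mef2a at 76.9% and 82.8%. The 25 nt exon of Tcf7l2, which acts at the end of Wnt signalling, was at 74.0% and 77.3%. RNA binding and translation genes held 8 members with a median of 83.6%, and 5 lay at 10 to 90%. The 24 nt exon of Cpeb4, which controls the poly-A tails of mRNAs, was at 61.1% and 67.6% from junctions and 65.4% and 57.6% from transcripts.

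Members in any of these lists and those in none differed in level. The 214 members in a list had a median of 84.8%, with 98 at 10 to 90% and 27 under 10%. The 536 in no list had a median of 100%, with 114 at 10 to 90% and 35 under 10%. The lists were drawn up with results of these data known and with genes known to carry microexons, so this contrast is no independent evidence.

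Muscle genes held 10 members with a median of 98.7%, in 6 host genes, of which some were uneven between the libraries. Tnnt3, the fast skeletal troponin T, had 0.94 TPM in replicate 1 and 37.2 TPM in replicate 2, and its 19 nt exon had 2 upstream and 1 downstream reads in R1 and 382 and 273 in R2. Ldb3, of the sarcomere Z-disc, had 1.20 and 6.99 TPM, and its 23 nt exon had 1 upstream and 1 downstream reads in R1 and 133 and 131 in R2. Bin1 and Ryr1 were nearly equal, at 123 and 126 TPM and at 6.07 and 6.08 TPM, with inclusion of 97.4% and 98.1% for the 24 nt exon of Bin1 and 68.3% and 70% for the 18 nt exon of Ryr1. Of all 991 members 9 had no R1 read and 2 had no R2 read. The muscle marker sum was 13.6 TPM in replicate 1 and 557 TPM in replicate 2, and its part in these members was not tested.

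**Figure D5:**
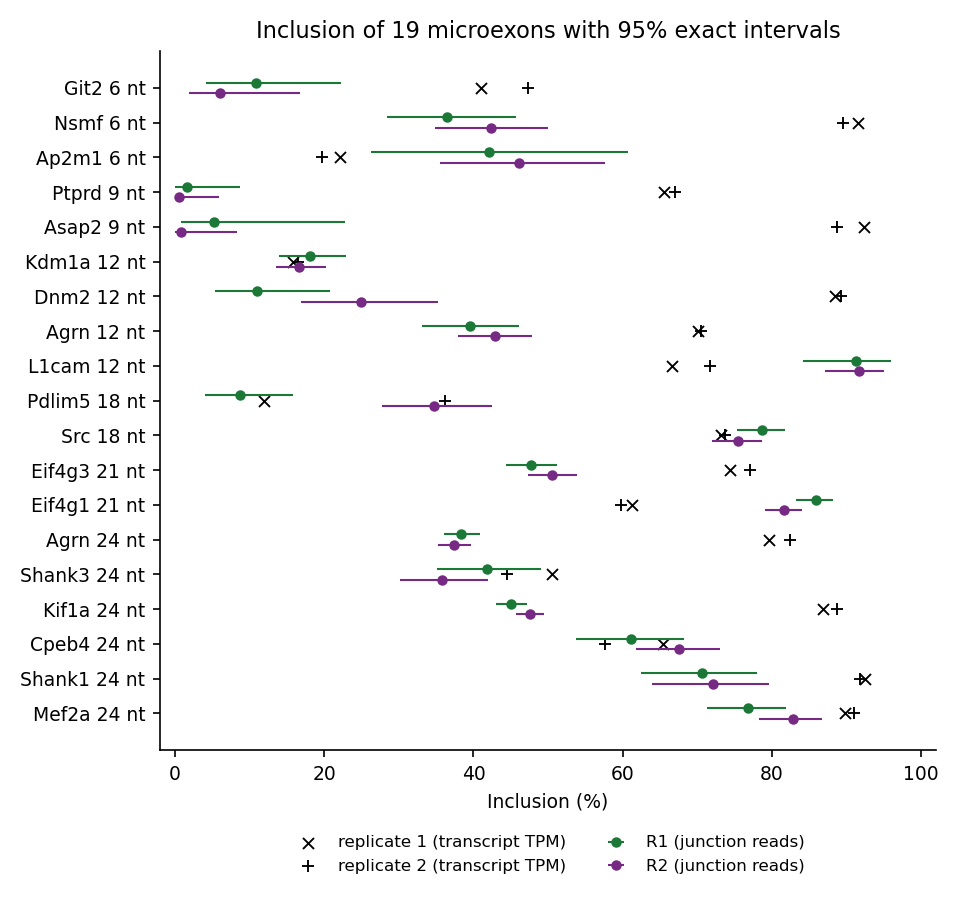
Inclusion (x axis, percent) of the 19 printed microexons, with dots for R1 and R2 and bars for their 95% exact intervals, and crosses for the transcript readout of replicates 1 and 2 where it could be had. For Src all 4 marks lie between 73.2% and 78.7%, and for Nsmf the junction dots lie at 36.5% and 42.3% and the crosses near 90%.

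The replicate columns lay close together. For 172 members at 10 to 90% with 100 or more reads the median difference was 4.07 points, 149 were within 10 points and the largest was 28.6 points. Pearson's r between the columns was 0.97 over these exons, as a description. A two-sided Fisher's exact test on inclusion and skipping reads, adjusted by Benjamini-Hochberg over 31422 exons of any length, called 56 of these (0.178%) at an adjusted p under 0.05, and 52 of 30899 of 28 nt or more (0.168%). Of the 523 members tested it called 4 (0.765%), and of the 401 with own splice sites 2 (0.499%). The test compares 2 libraries and counts reads as independent, so it speaks of these libraries only.

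The 18 nt exon of Pdlim5, a protein with PDZ and LIM domains that is abundant in muscle and also present in neurons, moved most among the called. In R1 it was at 8.65%, with 7 upstream, 11 downstream and 95 skipping reads. In R2 it was at 34.7%, with 39, 80 and 112 reads and an adjusted p of 0.000628 by Fisher's exact test. From transcripts it stood at 11.9% in replicate 1 and 36.2% in replicate 2. The muscle marker sum differed between the libraries as given above, and its part in Pdlim5 was not tested. Smaller differences were called for the 15 nt exon of Sh3glb2, an endophilin, which shares a splice site with another exon, at 90.5% and 85.2% (adjusted p of 4.53e-05 by Fisher's exact test). The 21 nt exon of Cltc, with a shared splice site as well, stood at 6.46% in R1 and 9.85% in R2 (adjusted p of 0.00295 by Fisher's exact test). In Dctn1, the large subunit of the dynein activator dynactin, a 21 nt exon stood at 95.9% and 92.9% (adjusted p of 0.041 by Fisher's exact test). Its other 21 nt exon and its 15 nt exon stood at 91.7% and 86.5% and at 92.0% and 87.3%, with adjusted p of 0.087 and 0.086 by Fisher's exact test.

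At the ends of the scale, among members with 100 or more reads and at least 1 skipping read, inclusion was lowest in Spag9 (12 nt, 0.12%), Cask (27 nt, 0.16%), Arl6 (13 nt, 0.16%), Kif5c (27 nt, 0.19%) and Cadps (9 nt, 0.22%). The exact 95% interval of Kif5c, a kinesin heavy chain, ran from 0.075% to 0.443% on 2939 skipping reads, and transcripts gave 0.167% ± 0.061 (SD, n = 2). For Spag9 and Arl6 transcripts gave 17.7% ± 0.918 and 29.1% ± 2.38 (SD, n = 2). The highest were Bsg (25 nt, 99.99%), Sptan1 (18 nt, 99.99%), Uqcrh (21 nt, 99.93%), Nptn (22 nt, 99.92%) and Fam171a2 (20 nt, 99.91%). Of these, Sptan1, Uqcrh and Fam171a2 share a splice site with another exon. Fam171a2 had 2215 upstream, 3 downstream and 1 skipping reads, so its value rests almost wholly on the upstream junction. Intervals cover counting error only, since reads copied in PCR are not independent molecules.

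Host genes mostly carried 1 member, and 79 of 615 carried at least 2 and 20 at least 3. Members of the same gene could differ in inclusion. In Mapk8ip3, a scaffold of JNK signalling and kinesin cargo, the 24 nt exon was at 42.1% and 45.2% and the 18 nt exon at 96.3% and 94.8%. The most members in 1 gene, 15, were in BC051142, where 12 nt to 27 nt exons ranged from 26.5% to 100%.

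Related genes shared microexons of the same length with different inclusion. The translation factors Eif4g1 and Eif4g3 hold 21 nt exons that are identical at 16 of 21 bases without gaps, while the 48 flanking bases printed above are identical at 18. Inclusion was 85.9% and 81.7% for Eif4g1 in R1 and R2, and 47.7% and 50.6% for Eif4g3. From transcripts the order was the other way round, at 60.5% ± 1.10 and 75.8% ± 1.89 (SD, n = 2). The 24 nt exons of Shank1 and Shank3 are identical at 11 of 24 bases, and 27 of their 48 flanking bases are identical.

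Host genes of the members had a median level of 25.2 TPM over 611 genes, of which 571 were detected at 1 TPM or more in both libraries. It stood beside 17.7 TPM over the 14816 genes detected in both libraries, a set limited to detected genes. The 20 read minimum favours genes with high levels, so this is a description. Regulators of splicing were detected at 1 TPM or more in both libraries for 39 of 42 genes. Srrm4 was at 22.9 and 17.9 TPM in replicates 1 and 2 and Srrm3 at 51.5 and 45.8 TPM. Ptbp2, the neural form that takes over from Ptbp1, was at 116 and 119 TPM and Ptbp1 at 70.1 and 64.1 TPM. Rbfox2 was the highest of its family at 202 ± 8.14 TPM (SD, n = 2), with Rbfox1 at 70.5 ± 13.3 and Rbfox3 at 22.4 ± 3.83. Nova1 and Nova2 were at 41.2 ± 3.44 and 22.4 ± 6.07 TPM (SD, n = 2). The highest regulators were Hnrnpa1 at 774 TPM, Hnrnpk at 636, Hnrnph1 at 406, Srrm2 at 378, Srsf11 at 373 and Hnrnpl at 297. The lowest were Mbnl3 at 1.48 TPM, Esrp2 at 0.22 and the epithelial regulator Esrp1 at 0.16. These are levels of a mixed tissue, and which cells held each regulator was not measured.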

How the data were processed

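Poly-A+ RNA above 200 nt, freed of ribosomal RNA, gave stranded paired-end libraries, per the labels. The authors deposited a junction list on mm9 with read counts of 2 replicate columns and an irreproducibility score for each junction, and exons of Ensembl release 65 with RPKM values in their attributes. The authors also deposited TPM, FPKM and expected counts per transcript and gene on mm10, with GENCODE M4 named in the deposited read-me texts. Aligner and programs: not given in the sources used here. No label, header or column name ties R1 and R2 to labelled replicates 1 and 2. Values were not used to match them, and they were kept apart.

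Junction ends were joined to exon ends to count inclusion and skipping reads. Inclusion shares have exact 95% Clopper-Pearson intervals, with the mean inclusion count rounded to a whole read. The replicate columns were compared by two-sided Fisher's exact tests with Benjamini-Hochberg adjustment over all exons with 20 or more reads in each column and at least 1 skipping read. Transcripts with and without an exon were told apart by exon structures on mm9 and GENCODE M21, and TPM was summed without a pseudocount. Transcripts on which both annotations disagreed were left out. Where only 1 annotation held a transcript, it was left out if its length differed from the deposited length. GENCODE M21 on GRCm38 gave positions and sequences, matched by transcript and lengths, so that mm9 positions were never converted.

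The exons, the gene lists and the tests were chosen with earlier results of these data known. Named members are, for each list, the 4 with the most reads, all of 3 to 6 nt with 100 or more reads, the 5 highest and 5 lowest, those called and those at the limits. Other members named in the text, among them most of those printed as sequence, were chosen after their values were seen. Python 3.11.15, pandas 2.3.3 and SciPy 1.17.1 were used, and the exon finder, the interval and the test were tested on simulated data. Alternatives were another inclusion measure, read minimums, skipping rule, score limit, class limits, each replicate left out, FPKM and higher TPM minimums.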

Additional observations from a re-analysis of the deposited data

How the results depend on the processing

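The median inclusion of 99.3% became 99.0% with the smaller of both inclusion junctions, 99.0% and 98.7% with a minimum of 50 and 100 reads, 77.4% when any spanning junction counted as skipping, and 100% with a score of at most 0.1. Leaving out each replicate of the junction list gave 99.5% to 99.6%. The count under 10% (73) became 137, 36 and 42 with any spanning junction, the score limit and class limits of 5% and 95%. The counts at 10 to 90% (263) and over 90% (655) became 534 and 320 with any spanning junction and stayed within 1.5 times under the other alternatives. The share in multiples of 3 (67.8%) was 87.5% at 10 to 90% inclusion. The transcript median of 61.8% was 63.6% with 5 TPM or more and 60.2% to 62.3% with 1 library left out, and the host gene median of 25.2 TPM was 15.7 in FPKM. The cause of these shifts was not tested. Added after the data were seen, own splice sites gave a median of 98.8%, 72.0% in multiples of 3, 90.1% of those at 10 to 90%, and 2 called exons in place of 4. Own splice sites with even junctions, and a minimum on mean inclusion plus skipping, gave medians of 98.9% and 98.9%. The transcript median was 70.3% up to 12 nt and 60.1% from 13 nt. Intron motifs in windows of 30, 50 and 100 nt were not run, as no genome was used here. No paired analysis was possible because there is 1 group.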
